A study of Mus musculus with 24 samples.

Results

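The SR proteins, their Tra2 relatives and the heterogeneous nuclear ribonucleoproteins (hnRNPs) were followed through 8 groups of mouse Neuro2A cells in which ataxin-2 mRNA was, or was not, targeted. Members were all genes of the deposited table whose symbol was Srsf with a number, began with Hnrnp, or was Tra2a or Tra2b, that reached a level of 0.5 CPM (counts scaled to the library's total) in at least 3 samples and that were not marked as pseudogenes. The rule took 32 of 34 matching symbols, among 13901 genes tested and 39253 listed. The 12 genes of the SR side were Srsf1, Srsf2, Srsf3, Srsf4, Srsf5, Srsf6, Srsf7, Srsf9, Srsf10, Srsf11, Tra2a and Tra2b, and the other 20 were hnRNPs. Srsf12 reached 0.5 CPM in 0 samples (mean 0.00826 CPM), and Hnrnpa1l2-ps2 was a pseudogene with a mean of 0.693 CPM. The symbol of the latter names a copy of Hnrnpa1, and how reads were divided between them was not checked.

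SR proteins bind RNA through RNA recognition motifs and recruit the splicing machinery to nearby splice sites through a tail rich in arginine and serine, which SR kinases phosphorylate. HnRNPs coat nascent transcripts, and many of them keep exons or splice sites from being used, so that the inclusion of an exon often depends on the balance of both classes. Many of these genes limit their own mRNA, since their proteins promote the inclusion of an exon that carries an early stop codon and sends the transcript to nonsense-mediated decay.

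RNA-seq was from wild-type Neuro2A cells, a mouse neuroblast line, with 3 samples in each of 8 groups. In 6 groups the cells were transiently transfected with plasmids encoding RfxCas13d, HiFi-RfxCas13d or DiCas7-11, RNA-targeting CRISPR effector proteins, each with a crRNA against mouse ataxin-2 (mATXN2) or a non-targeted crRNA (NTG). The other groups were an untransfected control and a positive control given an ataxin-2-targeting antisense oligonucleotide (ASO). Transfected cells were harvested 48 hr after transfection. Effectors were expressed from a CAG promoter, according to the study's methods, and no sort of transfected cells is described, so the values average over cells with and without the plasmids. No group received a mock transfection or a control oligonucleotide, and the labels do not say how the ASO was delivered. In the count table the columns are named EV and G12 where the sample titles have NTG and G10, so what the control arm received is not certain, and the labels' names are used here.

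Libraries held 12665725 to 22504999 expected counts, with the 3 ASO libraries at the top of that range (from 21874644). Values are given as CPM on TMM-scaled library sizes, in the order of replicates 1, 2 and 3. The 3 DiCas7-11 NTG libraries stood apart from each other more than replicates elsewhere, with a chi-square per gene of 3.33 to 5.59 between pairs against 1.68 to 2.55 in the other 7 groups. Replicate 2 of DiCas7-11 NTG was the highest of its group for 24 of the 32 members, and replicate 3 of the untransfected cells for 30 of 32. Neuroblast markers were present (Hand2 at 385.1 and Tubb3 at 353.9 CPM on average), Dbh and Th were low (2.7 and 0.915 CPM), and Epcam and Aqp4 were at 0. Atxn2 was at a mean of 123.2 CPM in untransfected cells and 52 CPM with the ASO, a log2 fold change of -1.25 (adjusted p = 1.65e-19, edgeR). Against the NTG arm of the same effector, Atxn2 changed by -0.10 with RfxCas13d (adjusted p = 0.178), -0.23 with HiFi-RfxCas13d (adjusted p = 0.00157) and -0.20 with DiCas7-11 (adjusted p = 0.00557), on the log2 scale.

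The proximal promoters of 4 members are shown, chosen after their values were seen, because these members had the largest or most repeated differences: Hnrnpdl and Srsf1, called higher in every NTG arm, Hnrnpa2b1, called higher in every NTG arm and within the untransfected range with the ASO, and Hnrnpa0, the most reduced with the ASO. Each is the 250 bases before the start of the gene's RefSeq transcript in GRCm38.p6, in the direction of transcription, from chr5:100039223-100039472 (minus strand), chr11:88047123-88047372 (plus strand), chr6:51469895-51470144 (minus strand) and chr13:58128557-58128806 (minus strand), in that order. Capitals mark CCAAT or its reverse complement ATTGG.
Hnrnpdl: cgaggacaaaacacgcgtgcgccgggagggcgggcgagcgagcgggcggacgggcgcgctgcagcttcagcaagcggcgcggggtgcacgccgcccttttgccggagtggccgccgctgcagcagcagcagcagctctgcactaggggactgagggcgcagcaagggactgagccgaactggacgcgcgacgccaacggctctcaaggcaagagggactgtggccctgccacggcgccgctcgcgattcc
Srsf1: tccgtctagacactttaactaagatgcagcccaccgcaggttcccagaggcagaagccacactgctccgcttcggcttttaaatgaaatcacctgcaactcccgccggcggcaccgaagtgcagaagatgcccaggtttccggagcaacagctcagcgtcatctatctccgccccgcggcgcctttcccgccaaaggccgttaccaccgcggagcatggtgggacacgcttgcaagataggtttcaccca
Hnrnpa2b1: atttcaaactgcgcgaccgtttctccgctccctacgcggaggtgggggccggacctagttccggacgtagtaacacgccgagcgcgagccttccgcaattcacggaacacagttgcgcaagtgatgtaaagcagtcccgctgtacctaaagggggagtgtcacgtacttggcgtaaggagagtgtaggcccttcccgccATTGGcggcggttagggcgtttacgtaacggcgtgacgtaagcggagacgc
Hnrnpa0: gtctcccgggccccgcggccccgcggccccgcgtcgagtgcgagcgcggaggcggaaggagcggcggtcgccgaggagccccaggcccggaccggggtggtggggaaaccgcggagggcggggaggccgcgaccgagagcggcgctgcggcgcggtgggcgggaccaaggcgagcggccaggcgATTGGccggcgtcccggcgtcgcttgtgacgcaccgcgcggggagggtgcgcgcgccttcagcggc

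The windows differ in composition, with a GC content of 72% in Hnrnpdl, 58.8% in Srsf1, 59.6% in Hnrnpa2b1 and 81.2% in Hnrnpa0. Hnrnpa2b1 and Hnrnpa0 each hold 1 match to CCAAT, the box bound by the factor NF-Y, and Hnrnpdl and Srsf1 hold 0. Of the 30 members with a promoter in the RefSeq table (Hnrnpll and Hnrnpul2 were not in it), 16 (53.3%) held CCAAT on either strand, against 34.5% of 27025 genes and 37.3% of the 10847 tested genes with a promoter. The GC box GGGCGG or CCGCCC, bound by Sp1 and its relatives, was in 24 members (80%), 32.9% of all genes and 57% of tested genes. CGGAAG or CTTCCG, the core bound by ETS factors, was in 10 members (33.3%), 13.8% of all genes and 25.1% of tested genes. TATAAA or TTTATA was in 3 members (10%), 13% of all genes and 6.51% of tested genes. Both strands were searched, matches of different motifs may share bases, and a match describes these letters only. The median GC content of the members' windows was 62.6% (46% to 81.2%), against 59.6% for tested genes.

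Members were abundant mRNAs. Mean levels over the 24 samples ran from 39.1 CPM for Hnrnph3 to 2584.5 CPM for Hnrnpa1. Per kb of median annotated transcript, Hnrnpa1 was the highest at 1487.9 CPM per kb, followed by Hnrnpk (1132.1), Hnrnpa2b1 (895.1), Hnrnpa3 (852.3) and Hnrnpab (681.8). Hnrnpa1, Hnrnpa2b1 and Hnrnpa3 are A/B-type hnRNPs, which bind RNA through paired recognition motifs, Hnrnpab is related to the D type, and Hnrnpk binds C-rich RNA through KH domains. The place of Hnrnpk rests on a median transcript length of 952 bases over 18 annotated transcripts. Among SR proteins, Srsf2 (290.3), Srsf1 (240.9) and Srsf3 (217.2) led and Srsf4 was the lowest (36.2 CPM per kb). Hnrnph3 was the lowest of all at 18 CPM per kb, 82.7-fold under Hnrnpa1.

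Differences between groups were small beside these differences between genes. The fold between a member's highest and lowest group mean had a median of 1.12 and ran from 1.04 to 1.36, and replicates of a group differed by a median coefficient of variation of 1.95%. Any difference among the 8 groups was tested with the edgeR quasi-likelihood test and Benjamini-Hochberg adjustment over all tested genes. In it 24 of 32 members passed 0.05, where 50.3% of all tested genes did. The share among genes as abundant as the members was not computed for this test. The smallest adjusted p-values were those of Hnrnpa3 (1.13e-08), Hnrnpa0 (8.11e-08), Hnrnpa2b1 (3.03e-07) and Hnrnpdl (4.33e-07). The 8 that did not pass were Srsf2, Srsf11, Tra2b, Hnrnph3, Hnrnpl, Hnrnpll, Hnrnpul1 and Hnrnpul2. The HiFi-RfxCas13d NTG group was the highest of the 8 for 11 members and the DiCas7-11 NTG group for 7, while the ASO group was the lowest for 16 and the untransfected group for 8.

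**Figure D1:**
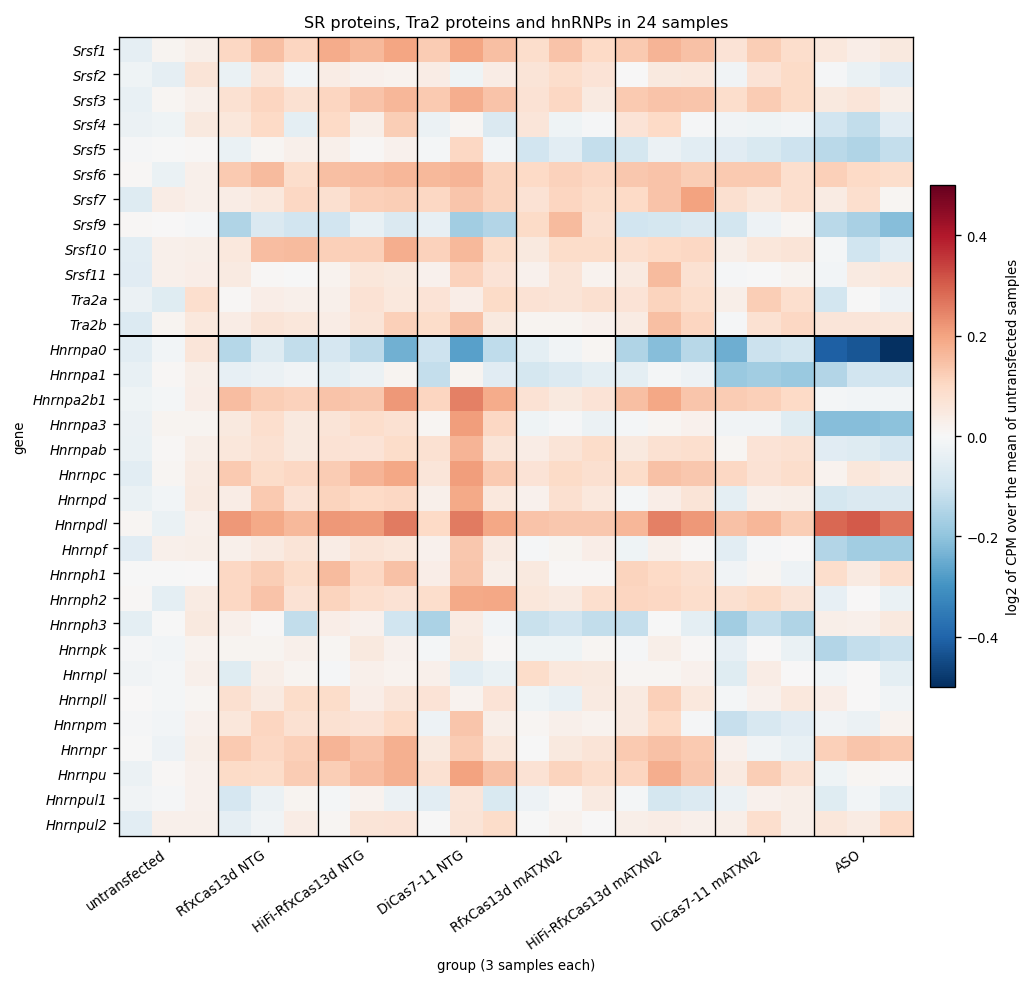
Each row is 1 of the 32 members and each column 1 of the 24 samples, ordered by group, and colour gives the log2 ratio of the sample's CPM to the untransfected mean on a scale from -0.5 to 0.5. Hnrnpdl is higher in all NTG arms and with the ASO, and Hnrnpa0 is lowest with the ASO, at a log2 fold change of -0.44.

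The NTG arms were compared with untransfected cells to see what transfection with an effector and a non-targeted crRNA did to these mRNAs. More members were higher than lower in each arm. With RfxCas13d, 11 of 32 were called higher (34.4%) where 5.6% of all tested genes were, and 0 were called lower where 5.66% of tested genes were (2 lower at an unadjusted p under 0.05 by edgeR, 0 by DESeq2 and 0 by limma-trend adjusted within the comparison). Limma-trend adjusted over 10 comparisons called Srsf9 lower there (adjusted p = 0.043), and edgeR called Hnrnpa0 lower with no filter on low counts (adjusted p = 0.0237) or with only the samples compared (adjusted p = 0.0356). With HiFi-RfxCas13d, 14 were called higher (43.8%) against a background of 10.3%, and 1 lower against 10.6%. With DiCas7-11, 16 were called higher (50%) against 11.1%, and 2 lower against 10.8%. Abundant genes were called more often than others, and among the 5671 genes with a mean of at least 39.1 CPM the shares called higher were 10.1%, 19% and 21.1% in the same order. The members' median log2 fold changes were 0.06, 0.08 and 0.07, while that of all tested genes was -0.0046, -0.0054 and -0.0062.

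All 3 NTG samples lay above all 3 untransfected samples for 16 members with RfxCas13d, 18 with HiFi-RfxCas13d and 14 with DiCas7-11, where this held for 13.9%, 17.6% and 15.5% of tested genes. The counts by the quasi-likelihood test were 4 of 12 SR and Tra2 genes and 7 of 20 hnRNPs with RfxCas13d, 5 and 9 with HiFi-RfxCas13d, and 6 and 10 with DiCas7-11, all of these higher. The 3 comparisons use the same untransfected samples, so they are given side by side and not as separate evidence, and transfection, effector and crRNA cannot be told apart in any of them. A lower level here may mean fewer cells of a type or less RNA per cell, which bulk values cannot tell apart. In every arm called members included Srsf1, Srsf3, Srsf6, Srsf10, Hnrnpa2b1, Hnrnpc, Hnrnpdl, Hnrnph1, Hnrnph2, Hnrnpr and Hnrnpu, 11 in all. The share of all tested genes called in every arm was not counted.

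**Figure D2:**
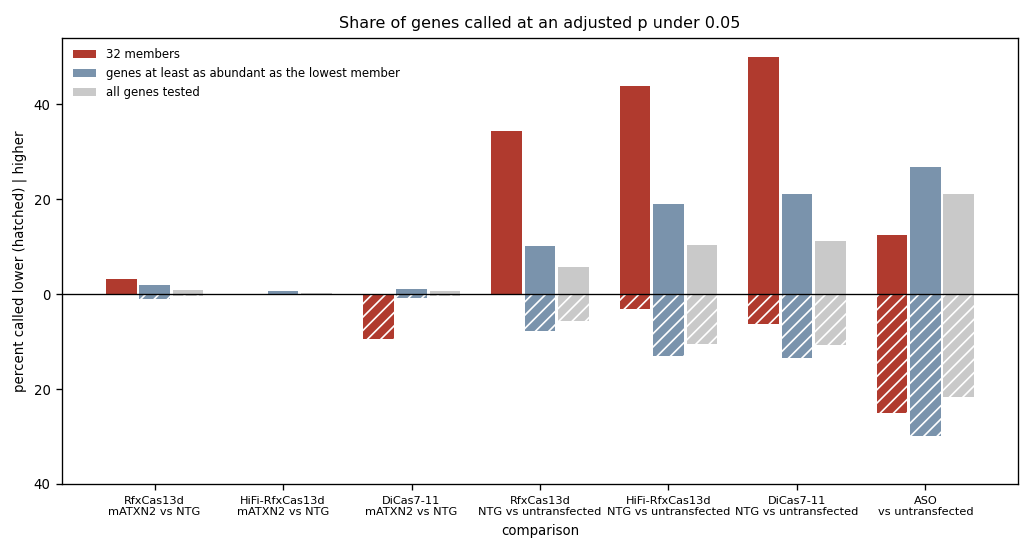
Bars give the percent of genes called higher (plain) and lower (hatched) at an adjusted p of 0.05 for the 32 members, the 5671 abundant genes and all 13901 tested genes in 7 comparisons, from an axis that starts at 0. In the 3 NTG arms 34.4%, 43.8% and 50% of members are called higher, and with the ASO 12.5% higher and 25% lower.

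Srsf1, the SR protein first known as SF2/ASF, binds purine-rich exonic enhancers. Srsf1 was at 638, 666 and 672 CPM in the untransfected samples, and in the NTG arms at 708, 730.4 and 709 CPM with RfxCas13d, 750.1, 738 and 754 CPM with HiFi-RfxCas13d and 719.8, 754 and 732 CPM with DiCas7-11. Srsf1 was at 699, 727 and 705 CPM in the RfxCas13d mATXN2 samples, 721, 741 and 730 CPM in the HiFi-RfxCas13d mATXN2 samples, 691, 717 and 701 CPM in the DiCas7-11 mATXN2 samples and 684, 674 and 682 CPM with the ASO. Every transfected and every ASO sample was above the highest untransfected sample, and all NTG samples were above the ASO samples. Srsf1 differed from untransfected cells by a log2 fold change of 0.12 (SE 0.0233, adjusted p = 0.000884) with RfxCas13d, 0.18 (SE 0.0233, adjusted p = 2.18e-06) with HiFi-RfxCas13d and 0.16 (SE 0.0233, adjusted p = 1.24e-05) with DiCas7-11 in edgeR's quasi-likelihood test with Benjamini-Hochberg adjustment. Srsf3, among the smallest SR proteins, also takes part in mRNA export. Srsf3 was at 519.8, 537 and 543 CPM in the untransfected samples, and in the NTG arms at 562, 575 and 562 CPM with RfxCas13d, 574, 588 and 598 CPM with HiFi-RfxCas13d and 584, 605 and 588 CPM with DiCas7-11. Srsf3 was at 560.2, 573 and 550 CPM in the RfxCas13d mATXN2 samples, 584, 588 and 587 CPM in the HiFi-RfxCas13d mATXN2 samples, 566, 582 and 569 CPM in the DiCas7-11 mATXN2 samples and 552, 556 and 544 CPM with the ASO. All transfected and ASO samples exceeded the 3 untransfected samples, and the ASO samples lay below all NTG samples. Its log2 fold change was 0.09 with RfxCas13d, 0.14 (SE 0.0226, adjusted p = 5.34e-05) with HiFi-RfxCas13d and 0.15 (SE 0.0227, adjusted p = 1.47e-05) with DiCas7-11 (edgeR, Benjamini-Hochberg). With RfxCas13d the call for Srsf3 was lost without NTG replicate 2 (adjusted p = 0.0542) or untransfected replicate 1 (adjusted p = 0.0674).

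Srsf6 (SRp55) was, with Srsf1, among the 6 members of smallest p in each arm. Srsf6 was at 311, 303 and 315 CPM in the untransfected samples, and in the NTG arms at 339, 345 and 328 CPM with RfxCas13d, 343, 344 and 347 CPM with HiFi-RfxCas13d and 346, 348 and 334 CPM with DiCas7-11. Srsf6 was at 331, 335 and 332 CPM in the RfxCas13d mATXN2 samples, 340, 342 and 337 CPM in the HiFi-RfxCas13d mATXN2 samples, 338, 339 and 328 CPM in the DiCas7-11 mATXN2 samples and 336, 332 and 328 CPM with the ASO. The untransfected samples were the lowest of all, with no overlap with any other group. Log2 fold changes in the NTG arms were 0.13 (SE 0.0237, adjusted p = 0.000634), 0.16 (SE 0.0237, adjusted p = 2e-05) and 0.15 (SE 0.0238, adjusted p = 4.21e-05) (edgeR, Benjamini-Hochberg) for RfxCas13d, HiFi-RfxCas13d and DiCas7-11. Srsf10 turns into a splicing repressor when it is dephosphorylated, as in mitosis and heat shock. Srsf10 was at 356, 376 and 377 CPM in the untransfected samples, and in the NTG arms at 383, 411 and 412 CPM with RfxCas13d, 401, 401 and 419 CPM with HiFi-RfxCas13d and 400.4, 413 and 393 CPM with DiCas7-11. Srsf10 was at 382, 394 and 394 CPM in the RfxCas13d mATXN2 samples, 392, 396 and 397 CPM in the HiFi-RfxCas13d mATXN2 samples, 377, 384 and 386 CPM in the DiCas7-11 mATXN2 samples and 367, 345 and 357 CPM with the ASO. All NTG samples were above the untransfected samples, whereas the ASO samples overlapped them. Srsf10 was higher by 0.12, 0.14 and 0.12 (log2) in the 3 NTG arms and passed the test in each.

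Srsf7, like Srsf3, links splicing to mRNA export. Srsf7 was at 225, 241 and 239 CPM in the untransfected samples, and in the NTG arms at 241, 244 and 252 CPM with RfxCas13d, 248, 255 and 256 CPM with HiFi-RfxCas13d and 252, 258 and 254 CPM with DiCas7-11. Srsf7 was at 247, 253 and 250.2 CPM in the RfxCas13d mATXN2 samples, 252, 259 and 270.4 CPM in the HiFi-RfxCas13d mATXN2 samples, 248, 244 and 249 CPM in the DiCas7-11 mATXN2 samples and 242, 249 and 236 CPM with the ASO. Its NTG samples touched the untransfected range only with RfxCas13d, where replicate 1 equalled the highest untransfected sample to 3 digits. Srsf7 was called higher with HiFi-RfxCas13d (0.11) and DiCas7-11 (0.12), and the former call was lost without untransfected replicate 1 (adjusted p = 0.0803). Srsf9 (SRp30c) moved the other way. Srsf9 was at 110.1, 109.7 and 109 CPM in the untransfected samples, and in the NTG arms at 98.9, 104 and 103 CPM with RfxCas13d, 103, 107 and 104 CPM with HiFi-RfxCas13d and 107, 97.2 and 99.1 CPM with DiCas7-11. Srsf9 was at 117, 122 and 116 CPM in the RfxCas13d mATXN2 samples, 103, 103 and 104 CPM in the HiFi-RfxCas13d mATXN2 samples, 103, 108 and 110.5 CPM in the DiCas7-11 mATXN2 samples and 99.9, 98.1 and 94.5 CPM with the ASO. The NTG and ASO samples lay below the untransfected samples, and the RfxCas13d mATXN2 samples lay above all others. Srsf9 was called lower with DiCas7-11 NTG (-0.12 on the log2 scale), which did not pass when NTG replicate 2 (adjusted p = 0.122), NTG replicate 3 (adjusted p = 0.0617) or untransfected replicate 1 (adjusted p = 0.0548) was left out.

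**Figure D3:**
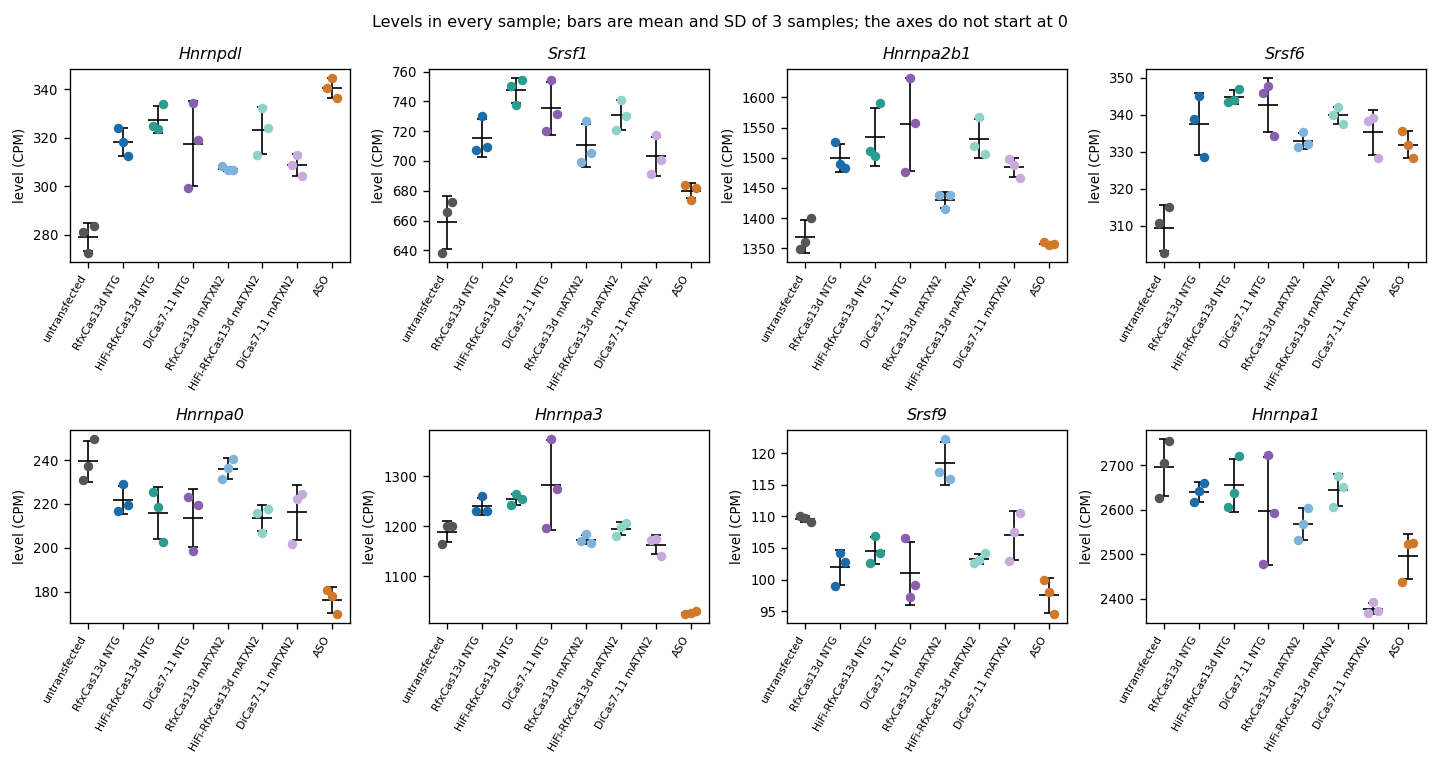
Points are the 3 samples of each of the 8 groups for 8 members, in CPM on a linear axis that does not start at 0, with the mean and SD (n = 3). The untransfected samples of Hnrnpdl (272 to 284 CPM) lie below every other group, and the ASO samples of Hnrnpa0 (169.7 to 181 CPM) and Hnrnpa3 (1025 to 1031 CPM) lie below every other group.

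Among the hnRNPs of the A/B type, Hnrnpa2b1 binds purine-rich RNA and acts in splicing and RNA sorting. Hnrnpa2b1 was at 1348, 1360.1 and 1400.3 CPM in the untransfected samples, and in the NTG arms at 1526, 1490.2 and 1483 CPM with RfxCas13d, 1511, 1503 and 1590.4 CPM with HiFi-RfxCas13d and 1477, 1632 and 1557 CPM with DiCas7-11. Hnrnpa2b1 was at 1438, 1415 and 1438 CPM in the RfxCas13d mATXN2 samples, 1519.5, 1568 and 1507 CPM in the HiFi-RfxCas13d mATXN2 samples, 1497, 1488 and 1466 CPM in the DiCas7-11 mATXN2 samples and 1360.3, 1355 and 1356 CPM with the ASO. All 18 transfected samples were above the 3 untransfected samples, and the ASO samples fell within the untransfected range. Log2 fold changes were 0.13 (SE 0.0262, adjusted p = 0.00115) with RfxCas13d, 0.16 (SE 0.0262, adjusted p = 3.94e-05) with HiFi-RfxCas13d and 0.18 (SE 0.0262, adjusted p = 8.12e-06) with DiCas7-11 in the edgeR test with Benjamini-Hochberg adjustment. Hnrnpa3, its close relative, was called higher only with DiCas7-11 among the NTG arms in the edgeR fit of all 24 samples. Some alternatives called Hnrnpa3 higher with HiFi-RfxCas13d too, among them DESeq2 (0.08, adjusted p = 0.0319). The edgeR fit of only the samples compared also called it higher with RfxCas13d (0.06, adjusted p = 0.0447). Hnrnpa3 was at 1165, 1201 and 1201 CPM in the untransfected samples, and in the NTG arms at 1231, 1259.8 and 1229.8 CPM with RfxCas13d, 1242, 1265 and 1255 CPM with HiFi-RfxCas13d and 1197, 1375 and 1276 CPM with DiCas7-11. Hnrnpa3 was at 1169.9, 1184 and 1166 CPM in the RfxCas13d mATXN2 samples, 1181, 1198 and 1206 CPM in the HiFi-RfxCas13d mATXN2 samples, 1173, 1175 and 1141 CPM in the DiCas7-11 mATXN2 samples and 1025, 1027 and 1031 CPM with the ASO. The ASO samples were the lowest of all groups, and DiCas7-11 NTG replicate 2 was the highest sample. The DiCas7-11 value was 0.11, and without NTG replicate 2 the call was lost at a log2 fold change of 0.06 (adjusted p = 0.0793).

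Hnrnpa0 is an intronless A/B-type gene. Hnrnpa0 was at 231, 237 and 249.7 CPM in the untransfected samples, and in the NTG arms at 217, 229 and 219.6 CPM with RfxCas13d, 226, 219 and 203 CPM with HiFi-RfxCas13d and 223, 198 and 219 CPM with DiCas7-11. Hnrnpa0 was at 231, 236 and 241 CPM in the RfxCas13d mATXN2 samples, 216, 207 and 218 CPM in the HiFi-RfxCas13d mATXN2 samples, 202, 222 and 225 CPM in the DiCas7-11 mATXN2 samples and 181, 178 and 169.7 CPM with the ASO. The untransfected samples were above all NTG and ASO samples, and the ASO samples were the lowest. It was called lower in the NTG arms of HiFi-RfxCas13d (-0.15) and DiCas7-11 (-0.16), and both calls were lost when some single libraries were left out. The first was lost without HiFi-RfxCas13d NTG replicate 3 (-0.11, adjusted p = 0.119) or untransfected replicate 3 (-0.12, adjusted p = 0.0801), and the second without DiCas7-11 NTG replicate 2 (-0.11, adjusted p = 0.0931). Hnrnpa1, the most abundant member, represses exons with UAGGG-like elements. Hnrnpa1 was at 2627, 2705 and 2754 CPM in the untransfected samples, and in the NTG arms at 2618, 2642 and 2661 CPM with RfxCas13d, 2607, 2638 and 2722 CPM with HiFi-RfxCas13d and 2479, 2723 and 2592 CPM with DiCas7-11. Hnrnpa1 was at 2533, 2568 and 2604 CPM in the RfxCas13d mATXN2 samples, 2606, 2677 and 2652 CPM in the HiFi-RfxCas13d mATXN2 samples, 2369, 2392 and 2372 CPM in the DiCas7-11 mATXN2 samples and 2438, 2524 and 2526 CPM with the ASO. Its NTG samples overlapped the untransfected samples in each arm, and the DiCas7-11 mATXN2 samples were the lowest.

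The D-type hnRNPs bind AU-rich elements and act on mRNA decay as well as splicing, and Hnrnpdl had the largest rise of any member in each NTG arm. Hnrnpdl was at 281, 272 and 284 CPM in the untransfected samples, and in the NTG arms at 324, 318 and 313 CPM with RfxCas13d, 325, 324 and 334 CPM with HiFi-RfxCas13d and 299, 334 and 319 CPM with DiCas7-11. Hnrnpdl was at 308, 307 and 307 CPM in the RfxCas13d mATXN2 samples, 313, 332 and 324 CPM in the HiFi-RfxCas13d mATXN2 samples, 309, 313 and 304 CPM in the DiCas7-11 mATXN2 samples and 341, 345 and 336 CPM with the ASO. No untransfected sample reached any sample of the other 7 groups. Log2 fold changes were 0.19 (SE 0.0301, adjusted p = 7.03e-05) with RfxCas13d, 0.23 (SE 0.03, adjusted p = 2.59e-06) with HiFi-RfxCas13d and 0.19 (SE 0.0302, adjusted p = 3.84e-05) with DiCas7-11 (edgeR, Benjamini-Hochberg). Hnrnpd, also known as AUF1, is its paralog. Hnrnpd was at 317, 321 and 334 CPM in the untransfected samples, and in the NTG arms at 333, 355 and 340.5 CPM with RfxCas13d, 350, 348 and 349 CPM with HiFi-RfxCas13d and 329.9, 370.1 and 336 CPM with DiCas7-11. Hnrnpd was at 329.6, 343 and 336 CPM in the RfxCas13d mATXN2 samples, 322, 332 and 339 CPM in the HiFi-RfxCas13d mATXN2 samples, 314, 330.4 and 331 CPM in the DiCas7-11 mATXN2 samples and 306, 308 and 308 CPM with the ASO. The HiFi-RfxCas13d NTG samples were above the untransfected samples, those of the other NTG arms overlapped them, and the ASO samples were below them. Hnrnpd was called higher with HiFi-RfxCas13d (0.11) and DiCas7-11 (0.09), and each call was lost when some single libraries were left out. The HiFi-RfxCas13d call was lost in edgeR without NTG replicate 1 (0.10, adjusted p = 0.0555) or 3 (0.11, adjusted p = 0.0501). The same held without untransfected replicate 1 (0.09, adjusted p = 0.0939) or 2 (0.10, adjusted p = 0.0733), so the fold changed little. The DiCas7-11 call was lost without untransfected replicate 1 (0.08, adjusted p = 0.153) or 2 (0.09, adjusted p = 0.122). Without NTG replicate 2 the DiCas7-11 value was 0.04 (adjusted p = 0.397).

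Hnrnpab, the relative of the D type, was among the 5 highest members per kb. Hnrnpab was at 1299, 1334 and 1355 CPM in the untransfected samples, and in the NTG arms at 1384, 1399.9 and 1376 CPM with RfxCas13d, 1398, 1394 and 1415 CPM with HiFi-RfxCas13d and 1402, 1494 and 1391 CPM with DiCas7-11. Hnrnpab was at 1363, 1392 and 1418 CPM in the RfxCas13d mATXN2 samples, 1374, 1401 and 1408 CPM in the HiFi-RfxCas13d mATXN2 samples, 1339.5, 1395 and 1402 CPM in the DiCas7-11 mATXN2 samples and 1277, 1272 and 1254 CPM with the ASO. Every NTG sample was above the untransfected samples, and every ASO sample below them. It was called higher with HiFi-RfxCas13d (0.08) and DiCas7-11 (0.10), and the former call was lost without NTG replicate 3 (adjusted p = 0.0639) or untransfected replicate 1 (adjusted p = 0.1). Hnrnpc binds uridine tracts and keeps cryptic exons from being spliced in. Hnrnpc was at 310.4, 324 and 332 CPM in the untransfected samples, and in the NTG arms at 353, 344 and 346 CPM with RfxCas13d, 352, 362 and 369 CPM with HiFi-RfxCas13d and 336, 373 and 352 CPM with DiCas7-11. Hnrnpc was at 338, 344 and 341 CPM in the RfxCas13d mATXN2 samples, 343, 357 and 354 CPM in the HiFi-RfxCas13d mATXN2 samples, 346, 339 and 342 CPM in the DiCas7-11 mATXN2 samples and 326, 335 and 332 CPM with the ASO. All transfected samples lay above the untransfected samples, and the ASO samples overlapped them. Hnrnpc was called higher in each NTG arm (0.11, 0.17 and 0.14), and the RfxCas13d call was lost without NTG replicate 1 (adjusted p = 0.0556) or untransfected replicate 1 (adjusted p = 0.0857).

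Hnrnph1 and Hnrnph2 bind runs of G. Hnrnph1 was at 753, 754 and 756 CPM in the untransfected samples, and in the NTG arms at 810.1, 822 and 804 CPM with RfxCas13d, 842, 811 and 834 CPM with HiFi-RfxCas13d and 771, 830.2 and 770.5 CPM with DiCas7-11. Hnrnph1 was at 781, 758 and 757 CPM in the RfxCas13d mATXN2 samples, 816, 808 and 797 CPM in the HiFi-RfxCas13d mATXN2 samples, 746, 759 and 741 CPM in the DiCas7-11 mATXN2 samples and 801, 779 and 799 CPM with the ASO. The untransfected samples lay close together and below all NTG and ASO samples. Its NTG log2 fold changes were 0.11 (SE 0.024, adjusted p = 0.00386) with RfxCas13d, 0.14 with HiFi-RfxCas13d and 0.07 with DiCas7-11 (edgeR, Benjamini-Hochberg), and the DiCas7-11 value was 0.03 (adjusted p = 0.333) without NTG replicate 2. That call was also lost without untransfected replicate 1 (adjusted p = 0.0836), 2 (0.0909) or 3 (0.0704). Hnrnph2 was at 192, 185 and 197 CPM in the untransfected samples, and in the NTG arms at 206, 211 and 201 CPM with RfxCas13d, 207, 203 and 202 CPM with HiFi-RfxCas13d and 203, 218 and 219 CPM with DiCas7-11. Hnrnph2 was at 199, 197 and 203 CPM in the RfxCas13d mATXN2 samples, 206, 206 and 204 CPM in the HiFi-RfxCas13d mATXN2 samples, 202, 205 and 200.2 CPM in the DiCas7-11 mATXN2 samples and 186, 192 and 187 CPM with the ASO. All NTG samples of Hnrnph2 exceeded the untransfected samples, and the ASO samples overlapped them. Hnrnph2 was higher by 0.11, 0.09 and 0.16 in the same order, and 2 of these calls were lost when some single libraries were left out. With RfxCas13d the call was lost in edgeR without NTG replicate 2 (0.09, adjusted p = 0.0852) or untransfected replicate 2 (0.08, adjusted p = 0.113). With HiFi-RfxCas13d it was lost without NTG replicate 1 (0.08, adjusted p = 0.0922) or NTG replicate 2 (0.09, adjusted p = 0.0525). Without untransfected replicate 2 the HiFi-RfxCas13d value was 0.07 (adjusted p = 0.162).

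Hnrnpr, a neuronal mRNA-binding protein closely related to Syncrip, and Hnrnpu, a nuclear matrix protein, completed the list of members called in every NTG arm. Hnrnpr was at 298, 293 and 304 CPM in the untransfected samples, and in the NTG arms at 327, 321 and 324 CPM with RfxCas13d, 335, 329 and 337 CPM with HiFi-RfxCas13d and 309, 325 and 310 CPM with DiCas7-11. Hnrnpr was at 298, 308 and 312 CPM in the RfxCas13d mATXN2 samples, 326, 330.2 and 327 CPM in the HiFi-RfxCas13d mATXN2 samples, 303, 295 and 290.3 CPM in the DiCas7-11 mATXN2 samples and 324, 329 and 326 CPM with the ASO. The NTG and ASO samples were above the untransfected samples, and the DiCas7-11 NTG samples were the lowest of the NTG arms on average. Hnrnpr differed by 0.12 (SE 0.0249, adjusted p = 0.00173) with RfxCas13d, 0.16 (SE 0.0248, adjusted p = 2.25e-05) with HiFi-RfxCas13d and 0.08 with DiCas7-11 (edgeR, Benjamini-Hochberg), and the last was lost without NTG replicate 2 (adjusted p = 0.148) or untransfected replicate 2 (adjusted p = 0.112). Hnrnpu was at 1558, 1594 and 1615 CPM in the untransfected samples, and in the NTG arms at 1698, 1692 and 1736 CPM with RfxCas13d, 1732, 1769.9 and 1796 CPM with HiFi-RfxCas13d and 1677, 1828 and 1760.3 CPM with DiCas7-11. Hnrnpu was at 1672, 1717 and 1689 CPM in the RfxCas13d mATXN2 samples, 1709.6, 1801 and 1743 CPM in the HiFi-RfxCas13d mATXN2 samples, 1639.9, 1729.6 and 1673 CPM in the DiCas7-11 mATXN2 samples and 1564, 1601 and 1596 CPM with the ASO. All transfected samples were above all untransfected samples, and the ASO samples overlapped them. Hnrnpu rose by 0.11, 0.15 and 0.14 (SE 0.0256, adjusted p = 0.000142) in the same order of effectors by the edgeR test with Benjamini-Hochberg adjustment. Tra2b, an SR-like protein that binds GAA-rich enhancers, was called higher with DiCas7-11 alone among the arms (0.10) when no library was left out. That call was lost without NTG replicate 2 (adjusted p = 0.182), untransfected replicate 1 (adjusted p = 0.219) or untransfected replicate 2 (adjusted p = 0.0593). Without untransfected replicate 3, edgeR also called Tra2b higher with HiFi-RfxCas13d (0.10, adjusted p = 0.0457).

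The number called with DiCas7-11 ran from 12 without NTG replicate 2 to 21 without NTG replicate 1, and 11 were called when only the DiCas7-11 NTG and untransfected samples were fitted. The members' transcripts were poorer in G and C than the average tested gene (a median of 44.7% against 51.1%), and log2 fold changes in the NTG arms fell with GC content. Spearman's rho across the 32 members was -0.55, -0.52 and -0.65, and across 12292 tested genes with a value it was -0.22, -0.24 and -0.26, a description across genes of the same libraries. With a correction for GC content chosen after seeing the data, the count with DiCas7-11 fell to 13, and Hnrnph1 (0.02), Hnrnpr (0.04), Tra2b (0.04), Hnrnpd, Srsf7 and Srsf10 (0.07 each) were no longer called. The same correction ended the calls of Srsf3 (0.04), Hnrnph2 (0.07) and Srsf10 (0.08) with RfxCas13d, and of Srsf7 (0.07) and Hnrnph2 (0.04) with HiFi-RfxCas13d. It also added calls: Hnrnpa1 was called lower in the 3 NTG arms (-0.06, -0.06 and -0.10, edgeR adjusted p = 0.0149, 0.00685 and 8.75e-05), and Srsf4 higher with HiFi-RfxCas13d (0.13, adjusted p = 0.0384). The part of GC content in these differences was not tested.

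**Figure D4:**
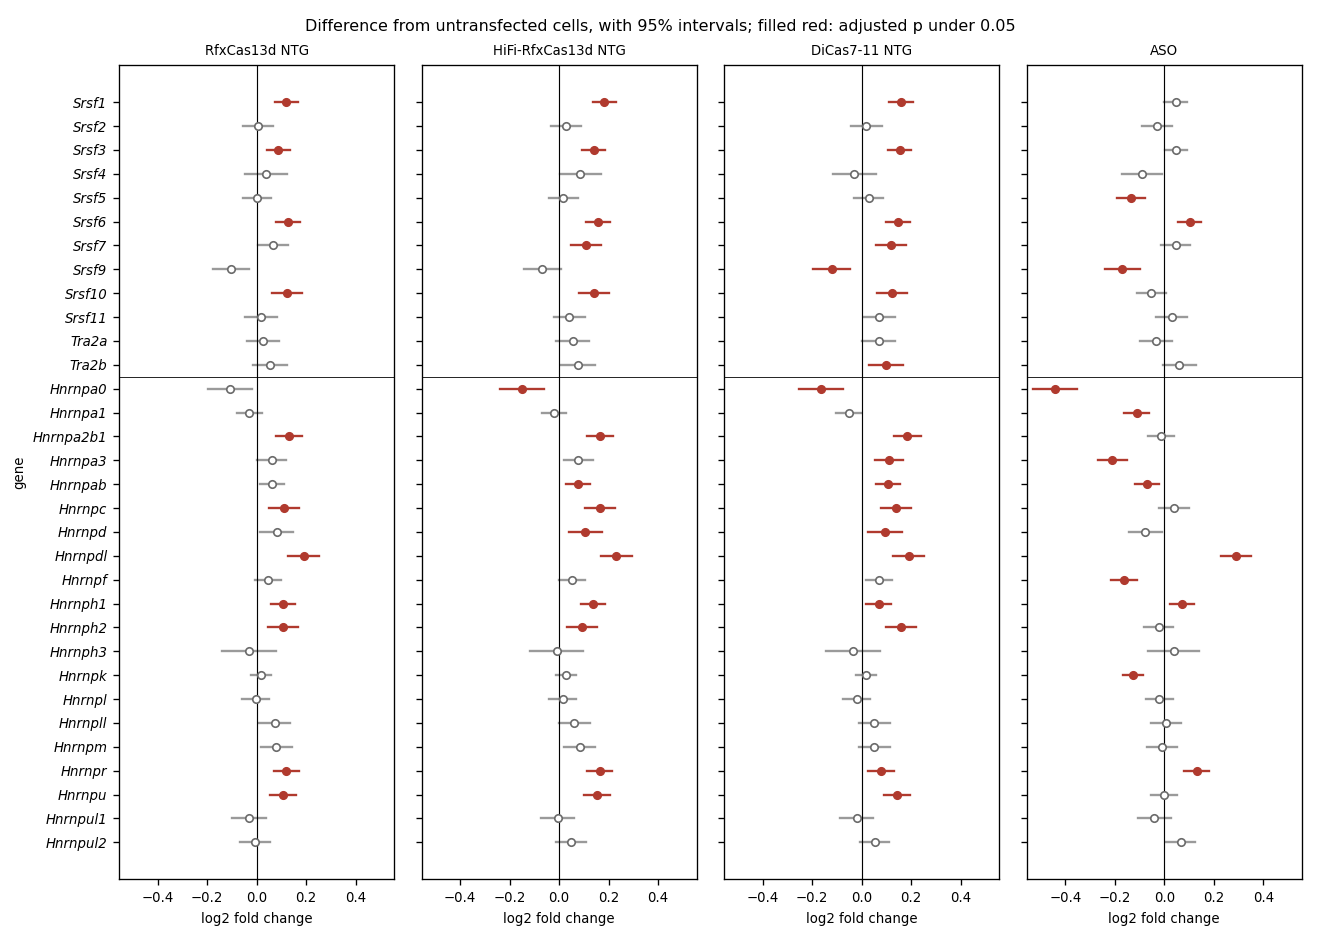
Points are log2 fold changes against untransfected cells with 95% intervals for the 32 members, in 4 panels for the NTG arms of the 3 effectors and the ASO, and filled red points passed an adjusted p of 0.05. In the NTG panels 11, 14 and 16 members lie to the right as called, and in the ASO panel called members reach from -0.44 for Hnrnpa0 to 0.29 for Hnrnpdl.

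With the ASO, the positive control, members went in both directions. Of 32, 4 were called higher (12.5%) and 8 lower (25%), where 21% and 21.7% of all tested genes and 26.7% and 30% of the abundant genes were. The members' median log2 fold change was -0.02. Samples did not overlap for 8 members that were higher and 10 that were lower, against 25.8% and 26.1% of tested genes. The members' shares lay near or below the background, and the ASO group differed from the untransfected group in many genes. Log2 fold changes with the ASO had a Spearman's rho of -0.35 with transcript GC content across the members and -0.05 across tested genes. With transcript length rho was 0.47 across the members and 0.11 across tested genes. The part of either property in these differences was not tested.

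Hnrnpa0 had the largest change of any member in the study. Its level fell from 231, 237 and 249.7 CPM to 181, 178 and 169.7 CPM, a log2 fold change of -0.44 (SE 0.0432, adjusted p = 2.11e-09) or 26.3% lower, in edgeR's quasi-likelihood test with Benjamini-Hochberg adjustment. Hnrnpdl rose by 0.29 (SE 0.0295, adjusted p = 4.85e-09), 22.1% higher, and Hnrnpa3 fell, with a log2 fold change of -0.21 (SE 0.0284, adjusted p = 6.28e-07) by the same edgeR test. Hnrnpf, which binds G runs like Hnrnph1, was at 629.5, 665 and 667 CPM in untransfected cells and 590.4, 580.3 and 579.7 CPM with the ASO, and Hnrnpk was at 1082, 1076 and 1099 CPM and 981, 999 and 1008 CPM. Both were lower in every ASO sample than in any untransfected sample. The log2 fold changes were -0.16 (SE 0.0258, adjusted p = 6.91e-06) for Hnrnpf and -0.12 (SE 0.0197, adjusted p = 7.27e-06) for Hnrnpk, and Hnrnpr rose by 0.13 (SE 0.0244, adjusted p = 6.97e-05) (edgeR, Benjamini-Hochberg). Hnrnpa1 (-0.11), Srsf9 (-0.17), Hnrnpab (-0.07) and Srsf5 (-0.14), the SR protein also called SRp40, were called lower, and Srsf6 (0.10) and Hnrnph1 (0.07) higher. Of the 12 calls, that of Hnrnpab was lost without untransfected replicate 2 (adjusted p = 0.0568), untransfected replicate 3 (adjusted p = 0.126) or ASO replicate 3 (adjusted p = 0.083), and the other 11 were kept when any single library was left out.

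The A/B-type genes gave different values with the ASO: Hnrnpa0, Hnrnpa3 and Hnrnpa1 were called lower, and Hnrnpa2b1 was at -0.01 (95% interval -0.07 to 0.04). Hnrnpdl was called higher with the ASO and in all 3 NTG arms, and Hnrnpa0 lower with the ASO and in 2 of the NTG arms, and these comparisons have the untransfected samples in common. Srsf1 was at 0.05 with the ASO (adjusted p = 0.111) and Srsf3 at 0.05 (adjusted p = 0.0947), both short of the threshold although their samples did not overlap the untransfected samples. Without untransfected replicate 3 both were called (adjusted p = 0.0461 and 0.0424).

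The mATXN2 arms were compared with the NTG arms of the same effector to see what targeting ataxin-2 did to the members beyond the effector itself. Few were called. With RfxCas13d, 1 of 32 was called higher (3.12%) where 0.914% of all tested genes were, and 0 lower where 0.475% were. At an unadjusted p under 0.05 edgeR had 6 members lower, DESeq2 called 2 lower (Hnrnph1 and Hnrnpr, at adjusted p = 0.0126 and 0.035), limma-trend 0 when adjusted within the comparison and 3 when adjusted over 10 comparisons (Srsf5, Hnrnph1 and Hnrnpr, at adjusted p = 0.0257, 0.0122 and 0.0182). With HiFi-RfxCas13d, 0 were called in either direction, where 0.281% of tested genes were called higher and 0.0144% lower. With DiCas7-11, 0 were called higher against 0.554% (1 at an unadjusted p under 0.05 by edgeR, 0 by DESeq2 or limma-trend), and 3 lower (9.38%) against 0.388%. Among the 5671 abundant genes, 1.94%, 0.635% and 1.16% were called higher with RfxCas13d, HiFi-RfxCas13d and DiCas7-11. Called lower were 1.01%, 0.0176% and 0.899% of these genes. Medians of the members were -0.03, -0.02 and -0.05 on the log2 scale, and 22, 25 and 25 of 32 were below 0. Medians of all tested genes were 0.0016, -0.001 and -0.001. Of the 5671 abundant genes, 53%, 51.3% and 55.8% were below 0. Samples of the mATXN2 arm lay wholly below those of the NTG arm for 11, 6 and 12 members, where 9.92%, 6.19% and 7.22% of tested genes did. They lay wholly above for 5, 0 and 0 members, where 10.3%, 6.97% and 7.25% of tested genes did. Spearman's rho of these log2 fold changes with transcript GC content was 0.45, -0.09 and 0.44 across the members and 0.23, 0.02 and 0.33 across tested genes.

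Srsf9 was the member called with RfxCas13d. Its CPM went from 98.9, 104 and 103 with NTG to 117, 122 and 116 with mATXN2, with no overlap and a log2 fold change of 0.22 (SE 0.0357, adjusted p = 0.00111), or 16.2% higher, in edgeR's quasi-likelihood test with Benjamini-Hochberg adjustment. The Srsf9 call was kept under every alternative run, with adjusted p-values from 2.28e-05 to 0.0239. In the same comparison Atxn2 did not pass the test. Srsf9 was at -0.02 with HiFi-RfxCas13d (95% interval -0.09 to 0.06) and 0.08 with DiCas7-11 (0.01 to 0.16).

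With HiFi-RfxCas13d, where Atxn2 was lower, DESeq2 and limma-trend also called 0 members, and 3 members had an unadjusted p under 0.05 by edgeR. The smallest p-values were those of Srsf5, at -0.07 (SE 0.0279, adjusted p = 0.51), and Hnrnpa3, at -0.07 (SE 0.0283, adjusted p = 0.548), in the edgeR test with Benjamini-Hochberg adjustment. Over the 32 members the 95% intervals of the log2 fold change lay between -0.15 and 0.12.

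With DiCas7-11, the 3 members called were Hnrnpa1, Hnrnpa3 and Hnrnpm, the last a protein that binds GU-rich RNA. Hnrnpm was at 355, 398 and 368 CPM with NTG and 333, 342 and 348 CPM with mATXN2. All mATXN2 samples of the 3 genes lay below all NTG samples. The log2 fold changes were -0.13 (SE 0.0244, adjusted p = 0.00658) for Hnrnpa1, -0.14 (SE 0.0284, adjusted p = 0.0104) for Hnrnpa3 and -0.13 (SE 0.0308, adjusted p = 0.0264) for Hnrnpm (edgeR, Benjamini-Hochberg). Each was lost without NTG replicate 2, the library in which these genes were highest, at adjusted p = 0.107 for Hnrnpa1, 0.144 for Hnrnpa3 and 0.338 for Hnrnpm. Without NTG replicate 1 the comparison called 11 members, and without NTG replicate 3 it called 4. Leaving out mATXN2 replicate 1 ended the calls of Hnrnpa1 (adjusted p = 0.0523) and Hnrnpm (0.172), replicate 2 that of Hnrnpm (0.0736) and replicate 3 that of Hnrnpa3 (0.0654). The test on the DiCas7-11 samples alone called 0 members. Its log2 fold changes were -0.13 for Hnrnpa1, -0.14 for Hnrnpa3 and -0.13 for Hnrnpm (edgeR adjusted p = 0.269, 0.34 and 0.356).

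**Figure D5:**
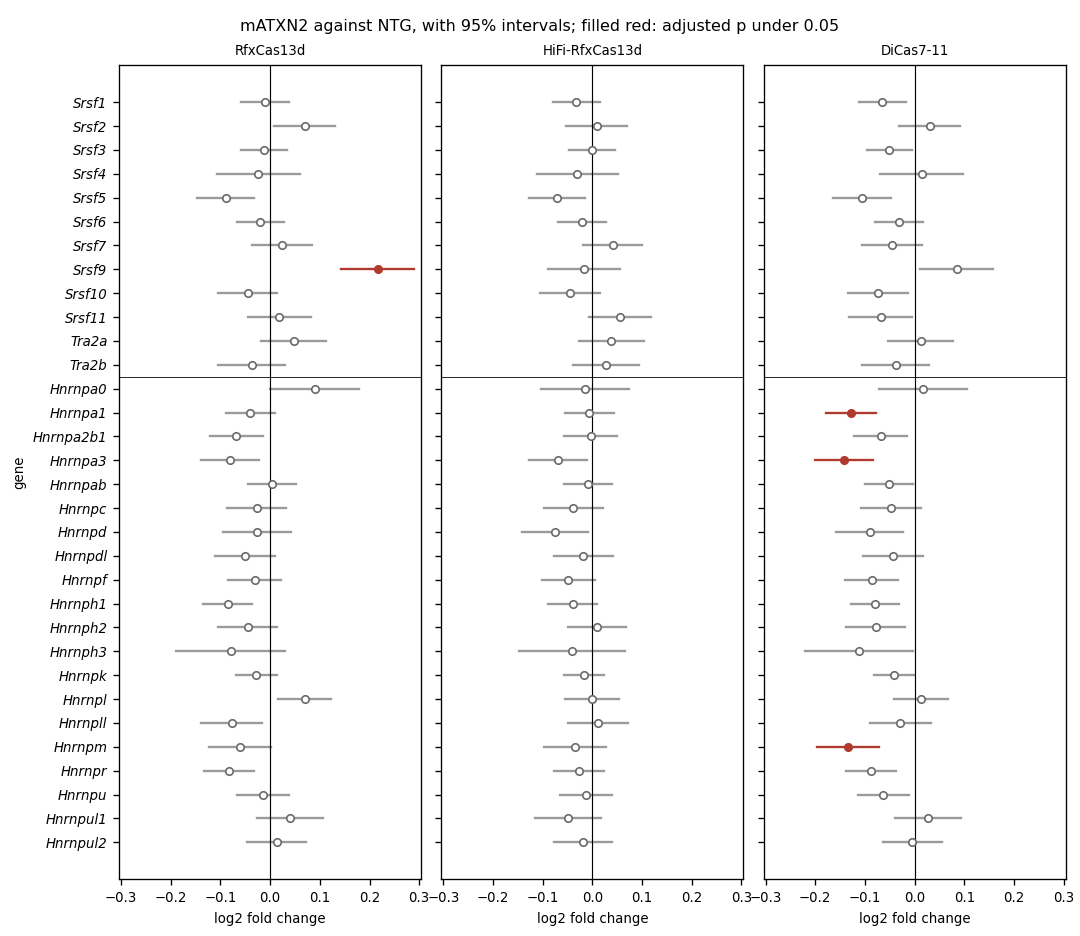
Points are log2 fold changes of mATXN2 against NTG with 95% intervals for the 32 members in 3 panels, 1 for each effector, and filled red points passed an adjusted p of 0.05. Srsf9 with RfxCas13d (0.22) is called higher, Hnrnpa1, Hnrnpa3 and Hnrnpm with DiCas7-11 (-0.13 to -0.14) are called lower, and 0 are called with HiFi-RfxCas13d.

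Whether the effectors differed in these responses was tested directly. The edgeR test called 0 of 32 members, and 0% of all tested genes, for each of the 3 pairs of effectors, and DESeq2 and limma-trend also called 0 members. Unadjusted p-values were under 0.05 for 2 members in HiFi-RfxCas13d minus RfxCas13d, 2 in DiCas7-11 minus RfxCas13d and 5 in DiCas7-11 minus HiFi-RfxCas13d. For Srsf9 the log2 response with HiFi-RfxCas13d minus that with RfxCas13d was -0.23 (SE 0.0504, adjusted p = 0.432), and with DiCas7-11 minus that with RfxCas13d -0.13 (SE 0.0506, adjusted p = 0.58), in edgeR with Benjamini-Hochberg adjustment. For Hnrnpa1 the response with DiCas7-11 minus that with HiFi-RfxCas13d was -0.12 (SE 0.0345, adjusted p = 0.536) by the same edgeR test. The 95% intervals of the differences over all members reached from -0.34 to 0.19, from -0.24 to 0.16 and from -0.22 to 0.21 on the log2 scale. With no filter on low counts, Srsf9 was called in the first difference (adjusted p = 0.0174) and Hnrnpa1 in the third (adjusted p = 0.0289). As tested here with the filter, Srsf9 and the 3 members called with DiCas7-11 are not shown to respond to 1 effector alone.

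The NTG arms were also compared with each other, which does not use the untransfected samples. Here too 0 members were called by edgeR, DESeq2 or limma-trend in each pair, where edgeR called 0.619% of tested genes between HiFi-RfxCas13d and RfxCas13d, 3.39% between DiCas7-11 and RfxCas13d and 0.705% between DiCas7-11 and HiFi-RfxCas13d. At an unadjusted p under 0.05 edgeR had 2, 1 and 4 members. On the log2 scale Srsf1 differed by 0.06 (SE 0.0231, adjusted p = 0.298) between HiFi-RfxCas13d and RfxCas13d, and Hnrnpr by -0.08 (SE 0.0247, adjusted p = 0.105) between DiCas7-11 and HiFi-RfxCas13d (edgeR, Benjamini-Hochberg). Srsf3 differed by 0.07 (SE 0.0225, adjusted p = 0.113) between DiCas7-11 and RfxCas13d in the same edgeR test. The 95% intervals over the members lay between -0.13 and 0.13, -0.15 and 0.12, and -0.20 and 0.13. The larger counts called with HiFi-RfxCas13d and DiCas7-11 than with RfxCas13d against untransfected cells are not by themselves a difference between effectors.

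The members not called in any of the 7 comparisons were 9: Srsf2, Srsf4, Srsf11, Tra2a, Hnrnph3, Hnrnpl, Hnrnpll, Hnrnpul1 and Hnrnpul2. How many of all tested genes were called in none of them was not counted. Of these members, Tra2a and Srsf4 passed the test of any difference among the 8 groups. Hnrnpl and Hnrnpll bind CA repeats, and Hnrnpul1 and Hnrnpul2 are relatives of Hnrnpu. Srsf2, an SR protein that mostly stays in the nucleus, was at 454, 446 and 483 CPM in untransfected cells and 459, 451 and 443 CPM with the ASO. Hnrnpul1 was at 197, 199 and 202 and 191, 198 and 193 CPM. Samples of both genes overlapped between these groups. Hnrnpll was above the untransfected samples in all samples of the NTG arms, and its log2 fold changes of 0.07, 0.06 and 0.05 did not pass the adjusted threshold.

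Other genes of the splicing machinery were counted from 3 lists. Of 13 other hnRNP-class proteins tested, 1 was called higher and 1 lower with RfxCas13d NTG, and 5 and 1 with HiFi-RfxCas13d NTG. With DiCas7-11 NTG 3 were called higher and 2 lower, and with the ASO 2 and 6. Of all tested genes, 5.6%, 10.3%, 11.1% and 21% were called higher in these 4 comparisons, and 5.66%, 10.6%, 10.8% and 21.7% lower. Cirbp, a cold-inducible RNA-binding protein, was called lower in all 4 (-0.34, -0.28, -0.21 and -0.34). Ptbp1, which represses exons beside pyrimidine tracts, rose with RfxCas13d NTG (0.08) and HiFi-RfxCas13d NTG (0.10), and Syncrip rose with DiCas7-11 NTG (0.19). Syncrip was at 292, 311 and 300 CPM in untransfected cells and 315, 369 and 343 CPM with DiCas7-11 NTG. With HiFi-RfxCas13d NTG it was at 327, 328 and 338 CPM, also above all untransfected samples. In mATXN2 against NTG, 1 of the 13 was called, Ptbp3, which was lower with DiCas7-11 (-0.13), where 0.388% of all tested genes were.

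Of 14 tested SR kinases, importers and nuclear speckle proteins, 2, 5 and 5 were called higher in the NTG arms and 0 lower. With the ASO 6 were called higher and 2 lower. Of all tested genes, 5.6%, 10.3% and 11.1% were called higher in the NTG arms and 5.66%, 10.6% and 10.8% lower. With the ASO these shares were 21% and 21.7%. Clk4, a kinase of SR proteins, was higher in the 4 comparisons (0.15, 0.22, 0.13 and 0.36). Srrm2, a scaffold of nuclear speckles, was the 1 gene of the list called in the mATXN2 arms, higher with RfxCas13d (0.28), HiFi-RfxCas13d (0.22) and DiCas7-11 (0.24). Of 31 core snRNP and splice site recognition genes, 5, 10 and 10 were called higher and 1 lower in each NTG arm. With the ASO 11 were called higher and 9 lower. The shares of all tested genes are those just given. Among the 5671 genes with a mean of at least 39.1 CPM, 10.1%, 19% and 21.1% were called higher in the NTG arms. U2af1, which recognises the AG dinucleotide at the end of introns, was higher in the NTG arms (0.14, 0.16 and 0.17). Prpf8, the core of the spliceosome's catalytic centre, was called higher in mATXN2 against NTG with each effector (0.22, 0.17 and 0.19). In these comparisons 4, 1 and 1 genes of this list were called higher and 0 lower. Of all tested genes, 0.914%, 0.281% and 0.554% were called higher there and 0.475%, 0.0144% and 0.388% lower. List medians in the NTG arms were 0.04, 0.04 and 0.03 for other hnRNP-class proteins, 0.04, 0.05 and 0.08 for kinases, importers and speckle proteins, and 0.05, 0.04 and 0.07 for core genes.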

How the data were processed

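RNA was measured in 24 samples of Neuro2A cells, 8 groups of 3, from stranded mRNA libraries read from one end. The deposited table holds expected counts per gene: the authors quantified reads with Salmon 1.5.2 on GRCm39, with its sequence and GC bias corrections, and summarised them to genes with length-scaled abundances, and their processing notes also list R 4.2.2. The authors kept 12874 genes for their own tests. All sample columns were matched to labels by name.

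Expected counts were rounded, and the 13901 genes that reached 0.5 CPM in 3 or more samples were tested. Genes left out held 0.0524% of counts. In R 4.3.3, edgeR 4.0.16 fitted all 24 samples with a coefficient per group, TMM scaling (factors 0.9883 to 1.025) and quasi-likelihood F-tests, with Benjamini-Hochberg adjustment over all tested genes within each of 13 comparisons and a threshold of 0.05. "Called" means past that threshold, higher or lower is relative to the group named last, and standard errors are the log2 fold change over the root of F. Alternatives were DESeq2 1.42.0, limma-trend 3.58.1 (prior count 3, also adjusted over 10 comparisons), no filter, a fit of only the samples compared, a replicate block, each library left out in turn, and corrections for transcript GC content and coding length (matched for 88.4% and 87.2% of tested genes and all 32 members).

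The scripts were tested on simulated data. The study's methods call in vitro replicates independent biological samples, and nothing more is given on separate cultures. Transcript lengths are medians over GENCODE transcripts of GRCm38, and promoters are from RefSeq GRCm38.p6, while the counts are on GRCm39, so no coordinates were carried between them. Members, gene lists and tests were chosen with earlier results of these data known. Members called in at least 2 of 7 comparisons, or with the 4 smallest p-values for any difference, are given in every sample, up to 6 called members per comparison with full statistics, and up to 4 called genes per other list and comparison by smallest p.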

Additional observations from a re-analysis of the deposited data

How the results depend on the processing

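Of the 60 calls of members in the 7 comparisons, 37 were kept under all alternatives run and 23 were lost under at least 1, with 79 losses in all and 0 reversals. Among the 30 changes given with full statistics, 10 values lost the call (Hnrnpa1, Hnrnpa3 and Hnrnpm with DiCas7-11 mATXN2). For mATXN2 against NTG with RfxCas13d the count of 1 became 3 with no filter, 2 with a replicate block, 4 with only the samples compared, 3 with DESeq2 and 4 with limma-trend adjusted over 10 comparisons, and Srsf9 was in each. With DiCas7-11 the count of 3 became 5 with a replicate block, 0 with only the samples compared, 7 with DESeq2 and 7 with limma-trend over 10 comparisons. DiCas7-11 NTG against untransfected cells went from 18 to 11 with only the samples compared. With no filter, 1 member was called in the response difference of HiFi-RfxCas13d and RfxCas13d (Srsf9, adjusted p = 0.0174) and 1 in that of DiCas7-11 and HiFi-RfxCas13d (Hnrnpa1, adjusted p = 0.0289). Between NTG arms, 1 was called for DiCas7-11 and RfxCas13d with a replicate block (Srsf3, adjusted p = 0.0483), and 1 for DiCas7-11 and HiFi-RfxCas13d with the GC correction and with the GC and coding length correction (Hnrnpr, adjusted p = 0.0401 with the former), corrections that were chosen after seeing the data. The cause was not tested.

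Leaving out 1 library at a time gave 23 to 27 members for any difference, 11 to 15 for the ASO, 9 to 11, 12 to 16 and 12 to 21 for the NTG arms of RfxCas13d, HiFi-RfxCas13d and DiCas7-11, 1 to 1, 0 to 0 and 0 to 11 for their mATXN2 arms, and 0 to 0 for each response difference. Between NTG arms it gave 0 to 0 for HiFi-RfxCas13d and RfxCas13d, 0 to 2 for DiCas7-11 and RfxCas13d (Hnrnpa3 and Hnrnpa2b1, without DiCas7-11 NTG replicate 1) and 0 to 2 for DiCas7-11 and HiFi-RfxCas13d (Hnrnph1 and Hnrnpr, without DiCas7-11 NTG replicate 2).

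Replicate numbers are shared by the groups. Over all tested genes, deviations of same-numbered samples had correlations of -0.0713 to 0.0432 in the 7 comparisons, and other pairs -0.0831 to 0.0756. With the ASO, same-numbered pairs (0.00999 to 0.0173) lay above all other pairs (at most 0.00563). The numbers are not taken as pairs, and a replicate effect shared by the members was not tested. The replicate block gave 11, 17 and 20 members in the NTG arms, 14 with the ASO, 27 for any difference and 0 in HiFi-RfxCas13d mATXN2. Without the block, 11, 15 and 18 were called in the NTG arms and 12 with the ASO. The smallest change called among the members was 0.07 on the log2 scale (Hnrnph1 in DiCas7-11 NTG). Expected counts do not carry the uncertainty of assigning reads to near-identical genes.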
